A study of Mus musculus with 2 samples.

Results

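The cells described here are Alb-expressing hepatocytes of a DDC-diet mouse liver library, selected on measured RNA: they held the most Defb1, Sprr1a and Ly6d and little or no EGFP. Barcodes with at least 500 genes, at least 5000 unique molecular identifiers (UMIs, 1 per captured RNA molecule) and at most 30% mitochondrial UMIs were kept. They also needed at least 100 Alb UMIs per 10000, less than 0.3 EGFP UMIs per 10000 and less than 2 UMIs per 10000 of Ptprc, Stab2, Clec4f and C1qa together. Of 8694 barcodes, 2506 passed the first limits and 999 passed all of them. These 999 were ranked by the summed Defb1, Sprr1a and Ly6d UMIs per 10000, called the score here. The top 20%, 200 cells, are the members, and the bottom 50%, 500 cells, are the comparison cells.

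The series profiled hepatocytes, Sox9-positive liver progenitor-like cells and tumour-model cells of mouse liver by droplet sequencing of RNA 3′ ends. In the DDC library, wild-type mice on normal diet (day 0) were combined with Sox9-EGFP mice fed DDC for 2 weeks, a porphyrin-inducing diet with bile duct injury, at 2 mice per time. The second library, called the DDC and cMet library, combined wild-type mice at day 0 with Sox9-CreERT2:Rosa26-mTmG mice 5 months into treatment with DDC and cMet, again 2 per time. Its label names hydrodynamic tail vein injection (HTVi) as the route of cMet, the gene of the MET receptor. All mice were of the C57BL/6J;129S6/SvEvTac background, and their age is not used here. No deposited label splits the barcodes by mouse, diet or time. Each library is therefore 1 sample, and the members cannot be assigned to untreated or DDC-fed mice. Diet and score therefore cannot be told apart. EGFP stands for Sox9 activity only in the mice that carry the reporter, so the ranked cells can be wild-type cells of day 0 or EGFP-low cells of the diet.

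Hepatocytes carry out the metabolic work of the liver, and the enzymes they make differ between the periportal and the pericentral end of the lobule. Defb1 encodes a beta-defensin, a secreted antimicrobial peptide of epithelia. Sprr1a encodes a small proline-rich protein that is cross-linked into the cornified envelope of squamous epithelium and is induced by injury in other tissues, and Ly6d encodes a lipid-anchored surface protein of the Ly6 family best known from lymphoid precursors and squamous epithelium. Gsta1 encodes an alpha-class glutathione transferase, an enzyme that couples glutathione to electrophiles and that the NRF2 transcription factor induces.

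The DDC library held 104523363 UMIs. In the DDC and cMet library, 18316 barcodes held 186997180. Members had a median of 38465 UMIs and 5623.5 genes per cell, the comparison cells 40044 and 5710.5. Mitochondrial UMIs were a median 6.84% and 7.52%, and ribosomal protein UMIs 8.33% and 7.55%. Alb was part of the rule, so the label was checked on the 7 other hepatocyte markers. They summed to 25076 CPM in members (the UMIs of a gene summed over a group of cells, per 1000000 UMIs of that group), 27419 in the comparison cells and 4024 in macrophage barcodes. Macrophage barcodes here are 478 barcodes of the same depth limits with at least 20 UMIs per 10000 of C1qa, C1qb, C1qc, Cd5l and Clec4f, and serve as the background for RNA outside cells. Of 8 duct and progenitor markers, Krt19, Krt7 and Cftr were at 0 in members and at most at 0.202 CPM in comparison cells. Spp1 was at 1372 against 1420 CPM, Sox9 at 82.4 against 70.5 and Epcam at 4.46 against 0.759, with Cd24a and Prom1 lower in members. Of the 8694 barcode sequences, 50 also occurred in the other library, 0 of them in members and 1 in comparison cells. Intervals below are 95% intervals and cover counting error only. With 1 library there is no replicate, no p-value and no standard error.

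Scores of the members ran from 7.73 to 126 with a median of 14.6 UMIs per 10000, and those of the comparison cells from 0 to 1.93 with a median of 0.551. The last cells inside the limit had 7.73, 7.80 and 7.82, and the first outside had 7.72, 7.68 and 7.63, so the limit cuts a continuous range. Because the 3 genes chose the cells, their levels are a description. Ly6d stood at 1050 CPM in members, 165 in the 299 cells between the groups and 19.4 in comparison cells. Sprr1a stood at 581, 126 and 12.7 CPM in the same order. Defb1 stood at 253, 134 and 33.7 CPM, the smallest spread of the 3 genes. EGFP-positive hepatocytes, 458 cells that met every other condition, held 294 CPM of Ly6d, 68.8 of Sprr1a and 74.9 of Defb1, and 63 of them (13.8%, interval 10.7 to 17.3) reached the lowest member score. Macrophage barcodes held 83.8 CPM of Ly6d and 52.4 of Sprr1a, more than the comparison cells, and 14.0 of Defb1, less than them. On summed CPM, Ly6d and Sprr1a levels as low as those of the comparison cells were therefore at or below what barcodes of another cell type held. The macrophage barcodes had a median score of 0 and a maximum of 41.1, at a median depth of 20713.5 UMIs. Of them, 12 of 478 (2.51%) reached the lowest member score, so their sums do not describe the typical macrophage barcode. The part of RNA from outside cells in these sums was not tested.

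Defb1 (ENSMUSG00000044748) lies at chr8:21776599-21795185, Sprr1a (ENSMUSG00000050359) at chr3:92483952-92485895, Ly6d (ENSMUSG00000034634) at chr15:74762056-74763620 and Gsta1 (ENSMUSG00000074183) at chr9:78230656-78242684 in GRCm38. The sequence before the annotated start of Sprr1a is shown because small proline-rich genes are textbook targets of AP-1, the Fos and Jun dimer. It covers chr3:92485896-92486131 (minus strand, RefSeq promoter table, build GRCm38.p6), and capitals mark the AP-1 letters TGANTCA, searched on both strands.
Sprr1a: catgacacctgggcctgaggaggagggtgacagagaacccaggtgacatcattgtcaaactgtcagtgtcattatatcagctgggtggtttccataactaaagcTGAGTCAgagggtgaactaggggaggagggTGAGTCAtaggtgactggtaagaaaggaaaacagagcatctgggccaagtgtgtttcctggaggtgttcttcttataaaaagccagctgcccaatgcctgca
The 2 matches lie 146 to 140 and 116 to 110 bases before the RefSeq start. The 14 bases between the end of the sequence shown and that start were cut as annotated exon. Among 27025 promoter windows of 250 bases, 6.87% held at least 1 match and 0.326% held at least 2. The first match overlaps a match to the antioxidant response core TGACNNNGC on the other strand, which 10.1% of the windows held. A match is a string of letters and not a measured site. AP-1 and other immediate early genes had no common direction in the 2 libraries. Of 17 measured, 6 lay above 0 and 11 below in the DDC library. Their median log2 ratio was −0.15 (members over comparison cells, on the scale of summed CPM). In the other library 13 lay above 0, with a median of 0.18. Over all genes, 5565 of 10720 lay above 0 in the DDC library (median 0.01) and 7817 of 11810 in the other (median 0.10). Fosb was at 37.7 CPM in members and 57.9 in comparison cells, and Atf3 at 33.9 and 55.6. Klf4 alone of the list was at least 2-fold higher, at 20.6 and 8.40 CPM, but macrophage barcodes held 73.6. Its log2 ratio was 1.3, and 0.90 without barcodes with immune RNA. Those held at least 5 UMIs per 10000 of Cd74, H2-Aa, H2-Ab1, H2-Eb1, C1qb, C1qc, Cd5l, Igkc and Cd79a together.

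Cells were also counted by whether they held any UMI of a gene after each was thinned to 5000 UMIs, which removes differences in depth. Ly6d was found in 76.0% of members (interval 69.5 to 81.7; 88.5% unthinned), 45.5% of the cells between the groups, 7.40% of comparison cells (38.0% unthinned) and 11.5% of macrophage barcodes. Sprr1a was found in 69.0% of members (62.1 to 75.3; 90.0% unthinned), 7.40% of comparison cells and 7.32% of macrophage barcodes. Defb1 was found in 53% of members (45.8 to 60.1; 87.5% unthinned), 18.2% of comparison cells (14.9 to 21.9) and 5.86% of macrophage barcodes (3.93 to 8.36). Median depths before thinning were 38465, 40044 and 20713.5 UMIs in these groups. The share of comparison cells with Defb1 thus exceeded that of macrophage barcodes, the share with Sprr1a was about the same, and the share with Ly6d was lower.

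**Figure D1:**
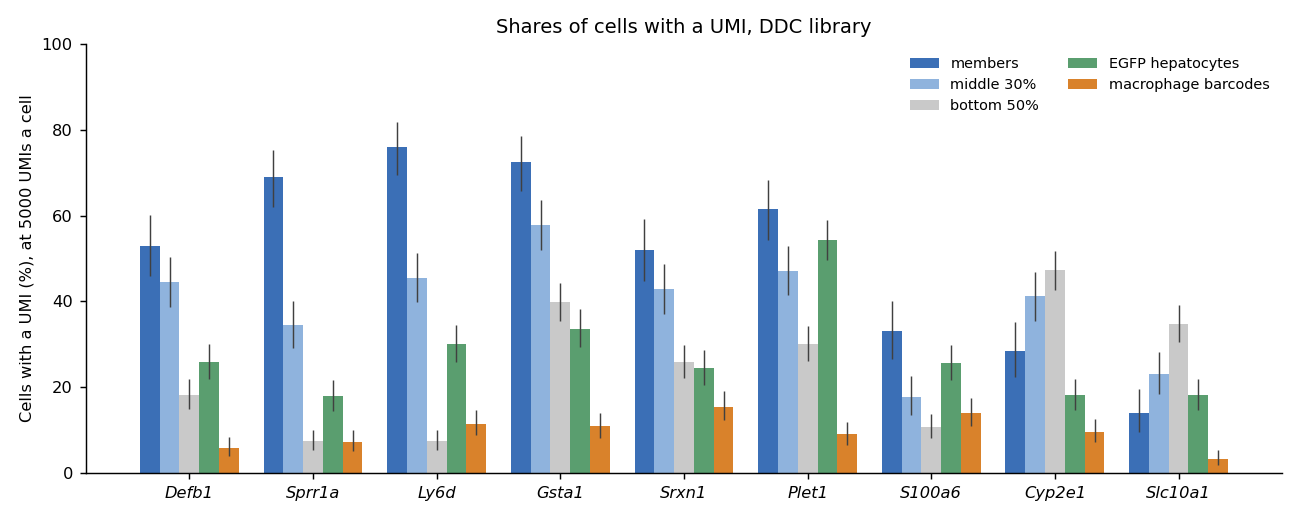
Percent of cells with at least 1 UMI of each gene (y axis) after thinning to 5000 UMIs, for 5 groups of barcodes in the DDC library, with bars for 95% exact binomial intervals. Members are highest for Ly6d (76.0%), Sprr1a (69.0%), Defb1 (53%) and Gsta1 (72.5%), and lower than the bottom 50% for Cyp2e1 and Slc10a1.

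Members differed among themselves in which gene made the score. Ly6d was the largest of the 3 genes in 107 cells, Sprr1a in 72 and Defb1 in 21. Without thinning all 3 genes were found in 69.0% of members, and in 38.5% of the cells between the groups and 8.00% of comparison cells. After thinning, all 3 were found in 29.5% of members (interval 23.3 to 36.3), 1% of the cells between and 0 of 500 comparison cells (up to 0.735%). A cell needs many UMIs of these genes to be a member, so these shares follow in part from the rule. To take each gene out of its own ranking, cells were ranked by the other 2 genes. Ranked without Defb1, the top 20% held 209 CPM of Defb1 and the bottom 50% held 57.8, a log2 ratio of 1.85 (1.74 to 1.96). Sprr1a left out of the ranking gave 353 and 69.2 CPM, a log2 ratio of 2.35 (2.26 to 2.45). Ly6d left out gave 496 and 141 CPM, a log2 ratio of 1.81 (1.74 to 1.88). These rankings kept 180, 155 and 134 of the 200 members. Each gene was thus higher where the other 2 were high, in the same cells and the same library. The 3 genes were chosen with earlier results of these data known, so these values describe the ranking and are no independent support for it.

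**Figure D2:**
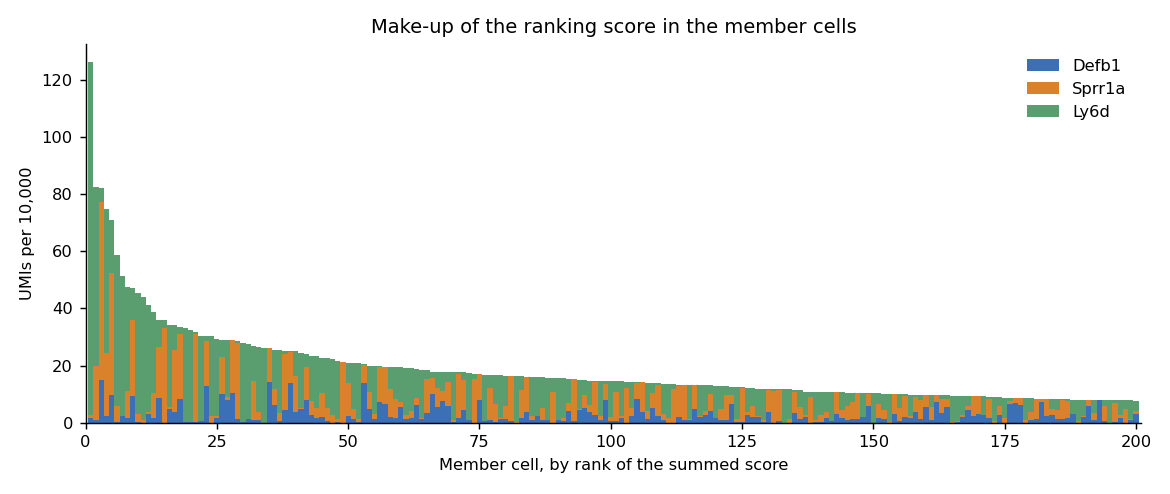
Stacked bars show Defb1, Sprr1a and Ly6d UMIs per 10000 (y axis) in each of the 200 members, ordered by score (x axis). Ly6d fills most of the highest bar, at 124 of 126 UMIs per 10000, and cells led by Sprr1a or Ly6d occur along the whole order.

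The members led by different genes held other RNAs at different levels. S100a6, a calcium-binding protein gene, stood at 421 CPM (interval 403 to 440) in cells led by Ly6d, 104 (91.6 to 117) in those led by Sprr1a and 59.1 (41.8 to 81.2) in those led by Defb1. Cxcl9, a T-cell chemokine gene, stood at 363 CPM in cells led by Sprr1a and 105 in those led by Ly6d. The middle Sprr1a-led cell held only 0.196 Cxcl9 UMIs per 10000, so few cells carried most of it. Cyp2a5, a cytochrome P450 gene, stood at 2733 CPM in the 21 cells led by Defb1, 1387 in those led by Sprr1a and 1219 in those led by Ly6d. Gclc, the catalytic subunit of glutathione synthesis, followed the same order with 1331, 735 and 631 CPM, and its median per cell was 14.4, 5.71 and 4.71 UMIs per 10000. Spp1, the osteopontin gene, was lowest in cells led by Defb1, at 272 CPM against 1505 and 1451, and its medians were closer, at 2.28, 1.91 and 2.84 UMIs per 10000. Median depth also differed, at 25231 UMIs in cells led by Defb1, 36406 in those led by Sprr1a and 42223 in those led by Ly6d.

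In a neighbour graph built without the 3 ranking genes, members had more members among their neighbours than the other ranked cells had. Of a member's 20 nearest cells, a mean of 34.4% were members, against 19.5% for the cells between the groups and 9.85% for comparison cells. Members make up 20% of ranked cells. With each cell thinned to 5000 UMIs the means were 32.4%, 20.2% and 11.7%. Single members ranged from 0% to 85%. Of a member's neighbours, 35.3% were cells between the groups and 30.3% comparison cells (35.2% and 32.4% after thinning). The members therefore did not form a closed group in that graph.

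Across 10720 genes with at least 50 UMIs, 203 (1.89%) were at least 2-fold higher in members than in comparison cells and 241 (2.25%) at least 2-fold lower, and the median log2 ratio was 0.01. The rule used this contrast, so its values are descriptions and support nothing beyond these cells. In the DDC and cMet library, which the rule did not use, the same ranking (without the EGFP condition) gave 670 top and 1675 bottom cells. Scores were far lower there: 58 of 3350 ranked cells (1.73%) reached the lowest score of a DDC member, 2108 had a score of 0, and the limit of the top 20% was 0.461. The top cells there had a median score of 1.25, below the highest score of the DDC comparison cells, 1.93. High-score cells of the 2 libraries are therefore not alike, and ratios of the other library come from a contrast at lower scores. There 307 of 11810 genes (2.60%) were at least 2-fold higher in the top cells and 187 (1.58%) at least 2-fold lower, with a median of 0.10. Both libraries include untreated mice, and the labels do not say whether these were the same animals. Values from the 2 libraries are therefore set side by side with no test between them.

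Among genes other than those ranked on, Gsta1 was the label's remaining marker. It was found in 190 of 200 members, from 0 to 55.9 with a median of 3.48 UMIs per 10000, and in comparison cells from 0 to 19.7 with a median of 0.753. The groups overlapped. Summed, it stood at 702 CPM in members, 459 in the cells between, 187 in comparison cells, 168 in EGFP-positive hepatocytes and 30.7 in macrophage barcodes. Its log2 ratio was 1.91 (1.85 to 1.97), and 1.85 in the DDC and cMet library (460 against 128 CPM). Gsta2, a close relative, was at 347 against 148 CPM (log2 ratio 1.23). Of 21 glutathione transferase genes measured these were the 2 at least 2-fold higher, 0 were at least 2-fold lower, and the list median was 0.06 (0.33 in the other library). Gstm7 and Gstt3 were lower, at −0.56 and −0.92.

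A gene model on the same strand of chromosome 9, Gm3776, stood at 366 CPM in members and 79.3 in comparison cells. It lies outside the naming rule and is named after its values were seen, because its reads may be shared with Gsta1. The sequences before the starts of both genes are shown for this reason, from the plus strand at chr9:78230419-78230655 and chr9:78256879-78257128 (RefSeq, GRCm38.p6). Capitals mark the single base at which the 237 aligned bases differ.
Gsta1: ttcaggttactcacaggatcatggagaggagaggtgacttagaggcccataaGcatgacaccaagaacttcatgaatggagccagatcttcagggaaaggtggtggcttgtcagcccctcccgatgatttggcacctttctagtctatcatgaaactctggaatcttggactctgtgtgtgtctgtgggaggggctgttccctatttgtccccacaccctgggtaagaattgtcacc
Gm3776: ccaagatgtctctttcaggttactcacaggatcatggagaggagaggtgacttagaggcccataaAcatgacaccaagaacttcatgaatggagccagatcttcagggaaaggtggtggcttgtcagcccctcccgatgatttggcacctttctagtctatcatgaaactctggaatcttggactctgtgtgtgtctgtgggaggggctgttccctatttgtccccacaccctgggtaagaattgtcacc
The other 236 bases (99.6%) were identical. These bases lie before the starts, while the reads come from RNA 3′ ends, so they do not show whether reads are shared. The transcripts were not compared. How reads were split between the copies is not known from the sources used here, so the level of each is less certain than their sum.

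NRF2 induces genes of glutathione and thioredoxin metabolism and of the pentose phosphate pathway. Of 23 measured targets, 21 lay above 0 and 6 were at least 2-fold higher in members, 0 were at least 2-fold lower, and the median log2 ratio was 0.58 (0.49 in the DDC and cMet library). Srxn1, which repairs oxidised peroxiredoxins, ran from 0 to 13.02 with a median of 1.33 UMIs per 10000 in members and from 0 to 9.44 with a median of 0.481 in comparison cells, or 212 against 67.4 CPM (log2 ratio 1.65, 1.55 to 1.76). In the other library Srxn1 had a ratio of 1.67. Slc7a11, the cystine transporter, had the largest ratio of the list, 3.83 (3.27 to 4.43), on 175 UMIs in 37 members and 31 UMIs in 13 comparison cells. Cbr3, a carbonyl reductase, was at 46.1 against 9.87 CPM. Gclc was at 722 against 353 CPM (1.03). G6pdx was at 6.49 against 3.04 CPM (1.10), on 51 and 60 UMIs, but at 60.2 in macrophage barcodes, and its ratio in the other library was 0.04. Without barcodes with immune RNA it was 1.08. Not every target was higher: Nqo1 had a ratio of 0.26, Gclm −0.02 and Osgin1 −0.48. Cyp2a5, also known as an NRF2-responsive gene, was at 1398 against 568 CPM (1.3, 1.26 to 1.34). Sqstm1, which encodes the p62 protein of Mallory-Denk bodies and autophagy, was at 487 against 262 CPM (0.90).

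Annexin, S100 and cytoskeletal genes, which injured epithelium often expresses, had a median of 0.52 (0.49 in the other library). Of 23 measured, 5 were at least 2-fold higher and 0 at least 2-fold lower. S100a6 ran from 0 to 42.1 with a median of 0.227 UMIs per 10000 in members and from 0 to 24.7 with a median of 0 in comparison cells, or 288 against 54.1 CPM (log2 ratio 2.41, 2.31 to 2.52). After thinning it was found in 33.0% of members and 10.6% of comparison cells, with 14.0% in macrophage barcodes. S100a11 was spread more evenly, in 198 of 200 members, with medians of 6.98 and 1.95 UMIs per 10000 (1.35, 1.3 to 1.40). Lgals3, Tmsb4x and Vim also passed 2-fold, but macrophage barcodes held 996, 19384 and 383 CPM of them against 101, 493 and 37.8 in members. The 9 Kupffer and macrophage markers summed to 77.5 CPM in members, 84.8 in the cells between and 79.9 in comparison cells, none of them at 0. Clec4f and C1qa are among the 9 and were limited by the rule in every ranked cell. Low sums in all 3 groups therefore follow in part from the rule. Their part in these 3 genes was not tested. Without the barcodes with immune RNA (18.0% of members, 13.2% of comparison cells), the ratio of Tmsb4x was 0.74 in place of 1.59.

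Chemokine genes had the highest median among lists with no ranking gene, 1.10 over 10 measured genes (1.44 in the other library), and 5 were at least 2-fold higher. Ccl2, which draws monocytes, was found in 147 members, from 0 to 47.9 with a median of 0.899 UMIs per 10000, and had a median of 0 and a maximum of 23.6 in comparison cells. It stood at 386 against 76.3 CPM, a log2 ratio of 2.34 (2.25 to 2.43), and at 273 CPM in EGFP-positive hepatocytes and 148 in macrophage barcodes. Cxcl9 was at 189 against 70.5 CPM (1.42), found in 46.0% of members, and its highest cell held 18.5% of the UMIs. Ccl7 had a ratio of 2.58 with 52.6% of the members' UMIs in 1 cell, and 1.87 without the highest cell of each group. Ccl20 rested on 50 UMIs in 4 members, and was higher in macrophage barcodes (27.5 CPM) than in members (6.37). Cxcl16 was at 64.2 against 25.3 CPM, but at 265 in macrophage barcodes. Monocyte and dendritic markers moved with these genes: the 8 markers summed to 17.4 CPM in members, 13.3 in the cells between and 3.04 in comparison cells, and none was at 0 in members. Their part in the chemokine values was not tested. Without the barcodes with immune RNA the ratio of Ccl2 was 2.53 and the list median 1.45. The genes that define those barcodes include none of the 8 monocyte and dendritic markers, so such RNA can remain. Of the defining genes, H2-Aa, H2-Ab1 and H2-Eb1 were higher in members (log2 ratios 1.27, 1.12 and 1.59), while C1qb, C1qc and Cd5l were not.

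Genes of injured or duct-like epithelium did not all move together in the DDC library. Of 24 measured, 16 lay above 0, 3 were at least 2-fold higher and 2 at least 2-fold lower, with a median of 0.26. In the other library 22 of 24 lay above 0, 9 were at least 2-fold higher and 0 at least 2-fold lower, with a median of 0.75. Plet1, a surface protein of epithelial progenitors, was at 268 against 97.2 CPM (1.46, 1.37 to 1.55), with medians of 2.29 and 0.233 UMIs per 10000. Cldn4 and Epcam, 2 junction and adhesion genes, passed 2-fold at 12.7 against 2.53 and 4.46 against 0.759 CPM, on 100 and 35 UMIs in members. Macrophage barcodes held 6.26 CPM of Cldn4 and 4.36 of Epcam, for Epcam about the level of the members. Spp1 and Sox9, which mark progenitor-like cells in this injury, had ratios of −0.05 and 0.23. Onecut1, a biliary and hepatocyte transcription factor gene, was lower, at 19.99 against 42.3 CPM (−1.08, but 0.09 in the other library), and Prom1 stood at −1.04. The keratins of hepatocytes were moderately higher: Krt8 had medians of 23.2 and 12.4 UMIs per 10000 (0.85, 0.82 to 0.87) and Krt18 of 11.4 and 7.50 (0.64). Of the cornified envelope list beside Sprr1a, Ecm1 (7.51 against 3.14 CPM) and Tgm1 (4.58 against 7.29) passed the UMI limit, and no other small proline-rich gene had a UMI in members. Macrophage barcodes held 232 CPM of Ecm1, and its ratio was −0.36 in the other library. Defb1 was the single defensin with a UMI among 14 looked for. Among 9 Ly6 and uPAR family genes measured, Plaur (8.91 against 2.18 CPM) and Ly6k (37.6 against 10.9 CPM) also passed 2-fold, and Gpihbp1 was at least 2-fold lower, on 8 UMIs in members and 49 in comparison cells. Macrophage barcodes held 37.0 CPM of Plaur, more than the members. Ly6e, at 1340 against 1191 CPM, had a ratio of 0.17.

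**Figure D3:**
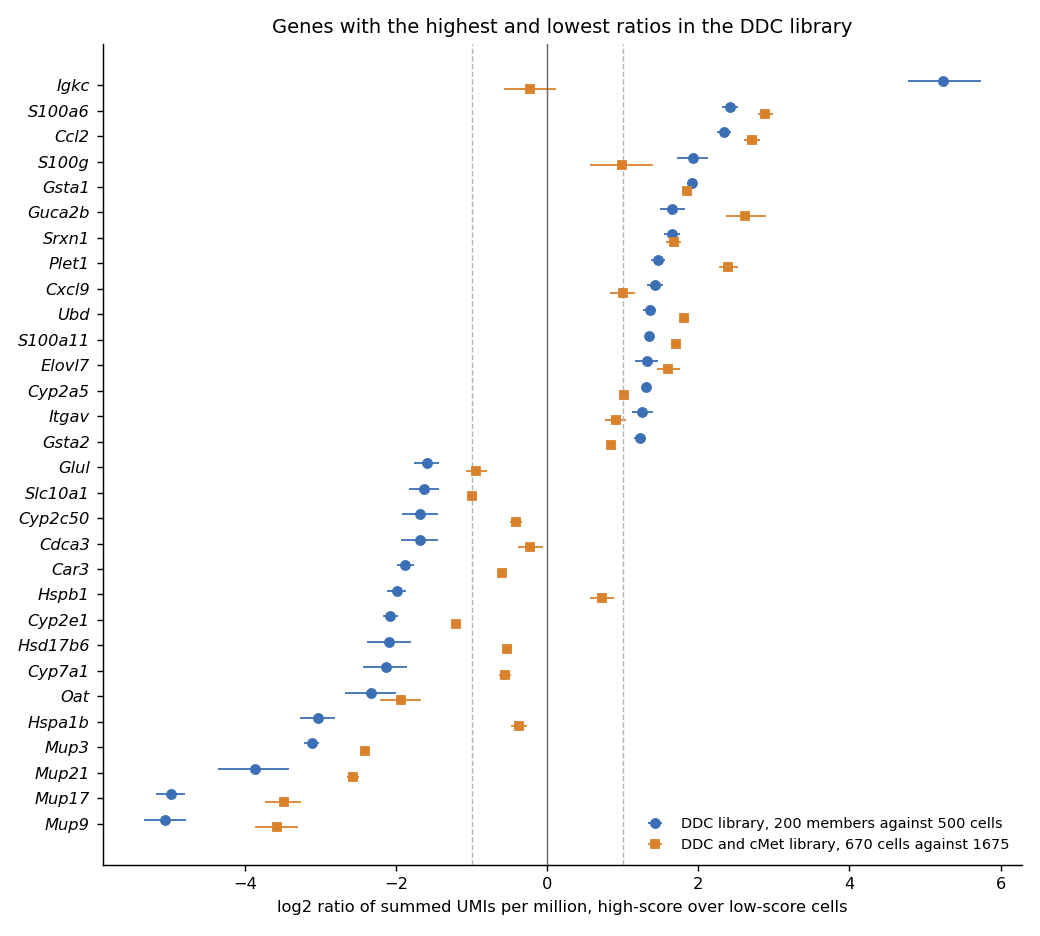
Points are log2 ratios of summed CPM (x axis) for the 15 genes with the highest and the 15 with the lowest ratios in the DDC library, high-score over low-score cells, in the DDC library (circles) and in the DDC and cMet library (squares), with bars for 95% counting intervals and dashed lines at 2-fold. Gsta1 and Srxn1 lie at nearly the same place in both libraries, and Hspb1 lies on opposite sides of 0. High-score cells of the DDC and cMet library had far lower scores, so the contrasts are not alike.

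Other genes among the 15 highest were Guca2b, S100g, Ubd, Elovl7, Itgav and Igkc. Igkc, the immunoglobulin kappa constant gene of B and plasma cells, had the highest ratio (5.24), but 1 barcode held 589 of its 599 UMIs in members, and the remaining 10 UMIs lay in 10 cells. The 5 B-cell markers summed to 3.82 CPM in members and 1.01 in comparison cells, with Ms4a1 at 0 in members. Ubd, a ubiquitin-like gene induced by interferon gamma and TNF, was at 283 against 111 CPM (1.36), and at 240 in EGFP-positive hepatocytes. Guca2b, the uroguanylin gene, was at 85.7 against 27.3 CPM (1.65), at 0.90 without the barcodes with immune RNA and at 2.90 without those rich in major urinary protein RNA. S100g was at 62.3 against 16.4 CPM (1.93), and at 1.32 without the latter barcodes. Elovl7, a fatty acid elongase gene, was at 87.9 against 35.4 CPM and Itgav, an integrin gene, at 107 against 44.8.

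Genes of zonated metabolism were among the lower ones. All 18 pericentral genes measured lay below 0 and 8 were at least 2-fold lower, with a median of −0.74 (−0.20 in the other library, where 7 of 16 lay above 0). Cyp2e1, the ethanol-inducible P450, ran from 0 to 17.3 with a median of 0.229 UMIs per 10000 in members and from 0 to 109 with a median of 0.976 in comparison cells. That is 110 against 464 CPM, a log2 ratio of −2.08 (−2.18 to −1.98), and −1.21 in the DDC and cMet library. EGFP-positive hepatocytes held less of it still, 61.8 CPM. Glul, glutamine synthetase of the cells next to the central vein, was at 44.2 against 133 CPM (−1.59), yet its medians were 0.252 and 0.286 UMIs per 10000: the highest comparison cell held 136, the highest member 19.3. The difference in Glul thus lay in the upper tail of the comparison cells. Oat (10.1 against 50.5 CPM) and Cyp7a1 (13.6 against 60.1 CPM) were also among the 15 lowest.

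Periportal genes were lower too. Of 18 measured, 16 lay below 0 and 5 were at least 2-fold lower, with a median of −0.58 (−0.52 in the other library). Pck1, the gluconeogenic enzyme, ran from 0 to 32.4 with a median of 2.28 UMIs per 10000 in members and from 0 to 39.0 with a median of 6.41 in comparison cells (−1.32, −1.38 to −1.25). Hal, which breaks down histidine, was at 34.8 against 76.4 CPM, and Hsd17b6 at 13.6 against 58.0. All 8 urea cycle genes lay below 0, with a median of −0.49 and 0 past 2-fold. Cps1, the first enzyme of the cycle, had medians of 7.0 and 13.1 UMIs per 10000 (−0.77), and Arg1 was at 256 against 488 CPM. All 17 genes of gluconeogenesis and amino acid breakdown lay below 0 (median −0.57, 2 past 2-fold), in the other library as well (−0.52). Hpd, of tyrosine breakdown, was at 126 against 294 CPM.

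Bile acid genes had a median of −0.76 over 20 genes, with 6 at least 2-fold lower and 0 at least 2-fold higher (−0.28 in the other library). Slc10a1, which takes bile acids up from blood, had medians of 0.105 and 0.740 UMIs per 10000 and stood at 30.3 against 93.6 CPM (−1.63, −1.83 to −1.43). Abcb11, the canalicular export pump, was at −1.09. Cyp7a1 and Cyp8b1, of bile acid synthesis, stood at −2.14 and −2.49. Abcc4, a basolateral exporter, went the other way at 0.88. Of 20 xenobiotic P450 genes 8 were at least 2-fold lower and 1 at least 2-fold higher, which was Cyp2a5, and the median was −0.72 (−0.21 in the other library). Cyp2c50 and Cyp2c54 were among the lowest, at 20.8 against 66.8 and 1.02 against 12.1 CPM, and are close relatives whose reads the counting may split.

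General hepatocyte genes differed less. Secreted liver proteins had a median of −0.08 with 0 of 22 past 2-fold, and Alb stood at 26086 against 31465 CPM (−0.27). Hepatocyte transcription factors had a median of −0.18 (0.01 in the other library), and Hnf4a a ratio of −0.14. Haem synthesis and breakdown genes, the pathway that DDC blocks, had a median of −0.11 with 0 of 15 past 2-fold, from Cpox at −0.66 to Blvrb at 0.55. Of 21 p53 targets 0 passed 2-fold and the median was 0.17. Over all genes only 1.89% were at least 2-fold higher and 2.25% at least 2-fold lower. Counts of 0 in lists this short are near that share and set none of them apart. Fibrinogen Fgb was at 2475 against 3441 CPM (−0.48, and 0.05 in the other library).

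**Figure D4:**
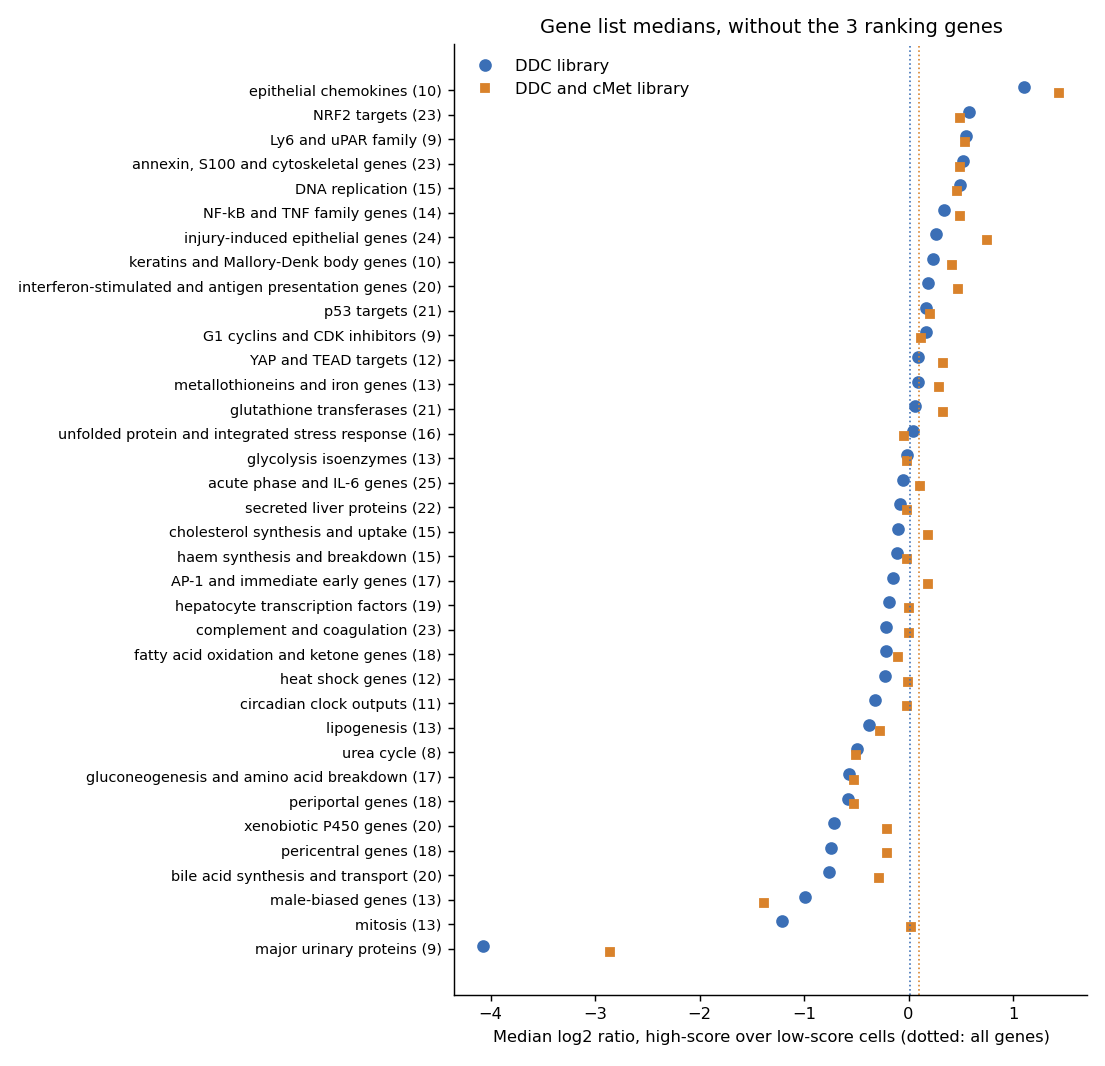
Each row is a gene list with at least 8 measured genes, and its number of measured genes in the DDC library. Points are the median log2 ratio (x axis) of high-score over low-score cells without the 3 ranking genes, in the DDC library (circles) and in the DDC and cMet library (squares), and dotted lines are the medians of all genes, 0.01 and 0.10. Chemokines lie highest at 1.10, pericentral genes at −0.74 and major urinary proteins lowest at −4.07.

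Major urinary protein genes, near-identical copies whose reads cannot be assigned with certainty, had the lowest list median. Of 9 measured, 8 were at least 2-fold lower, with a median of −4.07 (−2.85 in the other library). Mup3 stood at 110 against 954 CPM (−3.12), but its medians of 0.730 and 0.945 UMIs per 10000 were close, and its highest values were 89.4 and 299. Barcodes with at least 100 UMIs per 10000 of these genes made up 8.5% of members (interval 5.03 to 13.3) and 21.2% of comparison cells (17.7 to 25.0). Without those barcodes the list median was 0.02, on 6 genes. The same genes chose the barcodes left out, so the change in their own median follows from that choice. The median of male-biased genes was −0.06 in place of −0.996 (13 measured with all barcodes). Slco1a1, Elovl3 and Hsd3b5, 3 male-biased liver genes, had 6, 6 and 3 UMIs in members and 424, 347 and 114 in comparison cells. Of 4 Y-linked genes measured, 3 lay below 0 and 0 were past 2-fold. Ddx3y was at 77.2 against 87.4 CPM, Eif2s3y at 43.2 against 40.2, Uty at 14.1 against 15.8 and Kdm5d at 3.57 against 5.21 (−0.55, −1.21 to 0.07, on 28 and 103 UMIs).

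Mitosis genes were lower in members, 10 of 13 at least 2-fold, with a median of −1.22 (0.02 in the other library). Mki67 was at 11.5 against 30.9 CPM and Cdca3 at 19.5 against 62.8 CPM. Cells with at least 2 UMIs per 10000 of the mitosis list made up 10.5% of members (6.62 to 15.6) and 18.4% of comparison cells (15.1 to 22.1), with 9.03% between the groups. In the shallowest tercile of cells by UMIs the median was 0.00147, but only 3 genes of the list passed the UMI limit there. DNA replication genes had a median of 0.49, with Mcm5 at 6.49 against 3.24 CPM, on low counts, and at 29.0 in macrophage barcodes. That median was 0.07 without the barcodes with immune RNA and 0.01 after thinning.

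The lowest heat shock ratios rested on single comparison barcodes. Hspa1b, at 21.8 against 179 CPM (−3.04), had 92.9% of the comparison cells' UMIs in that group's highest barcode for it, and Hspb1, at 73.9 against 294 CPM (−1.99), 85.0%. Without the highest barcode of each gene the ratios were 0.71 and 0.59. Hspa1a had 98.2% of its UMIs in 1 comparison barcode.

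EGFP-positive hepatocytes, with at least 0.3 EGFP UMIs per 10000 and a median of 0.915, shared some of these levels with members and not others. After thinning, EGFP was found in 45.6% of them (100% unthinned) and in 5.65% of macrophage barcodes (9.62% unthinned), at median depths of 46558 and 20713.5 UMIs. The part of RNA from outside cells in this group was not tested. Plet1 was at 268 CPM in members and 226 in EGFP-positive cells, S100a11 at 785 and 556, and Ubd at 283 and 240, all above the comparison cells. Krt18 stood at 1735 and 1734 CPM in the same order. Gsta1 (702 against 168), Gsta2 (347 against 138), Srxn1 (212 against 64.0), S100g (62.3 against 13.8) and Cyp2a5 (1398 against 374 CPM) were higher in members, and in EGFP-positive cells lay at or below the level of the comparison cells. Pck1 was at 313 CPM in members and 793 in EGFP-positive cells, close to the 780 of the comparison cells. The 8 duct and progenitor markers summed to 1468 CPM in members, 1510 in comparison cells and 6479 in EGFP-positive cells. EGFP chose these groups, and Sox9-linked levels follow from that choice.

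Across deciles of the 999 ranked cells, many values changed over several steps and not only at the limit of the members. Between deciles 2 and 3, next to that limit, Ccl2 fell from 376 to 120 CPM and Cxcl9 from 274 to 88.3. Ccl2 was at 295 CPM in decile 4. Cstb, a cathepsin inhibitor gene, was lower at each of the 9 steps from the highest to the lowest score, from 2089 to 637 CPM. Plet1, S100a11 and Ubd were lower at 8 of 9 steps, Gsta1 and Srxn1 at 7. Gsta1 went from 741 CPM in the first decile to 163 in the last, and S100a6 from 395 to 13.7. Cyp2e1 and Slc10a1 were higher at 8 of 9 steps, from 67.2 to 938 and from 20.3 to 149 CPM. Cstb and Esd were chosen for these deciles after their values were seen. All 100 cells of the last decile had a score of 0, and their median depth was 26943 UMIs against 45329 in the decile before, so these steps were not matched for depth.

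**Figure D5:**
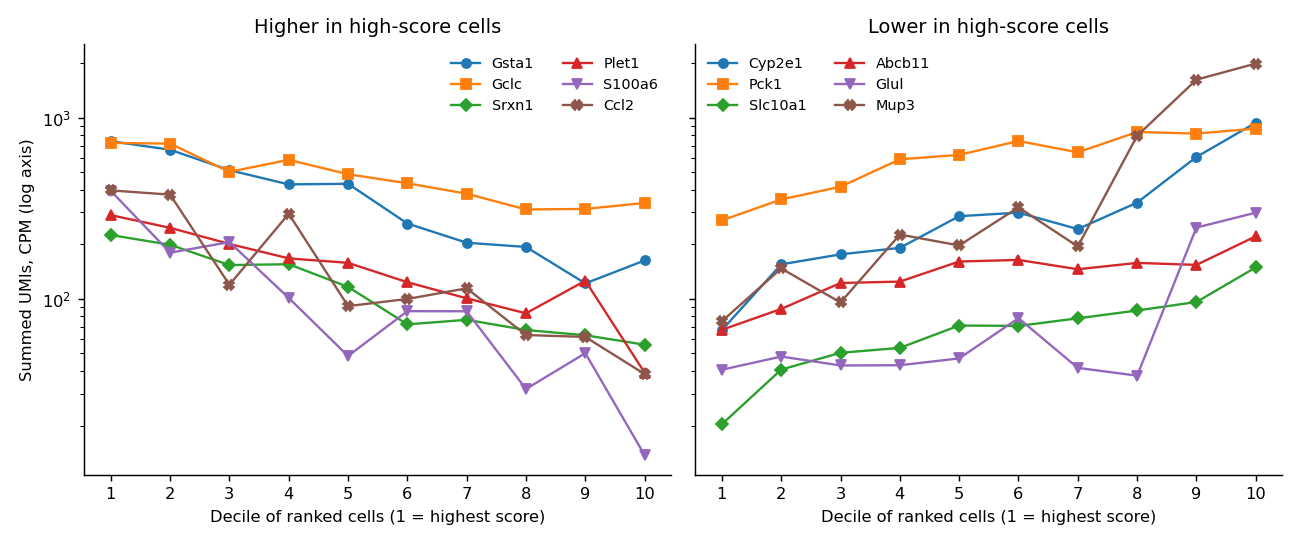
Summed UMIs in CPM (y axis, log scale) in deciles of the 999 ranked cells, from the highest score (1) to the lowest (10), for 6 genes higher and 6 lower in high-score cells. Gsta1 falls from 741 to 163 CPM and Cyp2e1 rises from 67.2 to 938, while Glul and Mup3 rise mainly in the last deciles.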

How the data were processed

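The authors deposited UMI counts per gene and barcode with no normalization, and lists of genes and barcodes as text (no unit). Per the file headers, Cell Ranger 5.0.1 wrote the matrices. The submitters' processing notes list version 6.0.1 of it, build mm10 and Seurat 4.0.1. The choice of barcodes by the authors is not stated in the sources used here. The members and the 40 gene lists were chosen with earlier results of these data known. EGFP and tdTomato were left out of group totals. UMIs were summed over each group of cells and scaled to CPM, and a log2 ratio with an exact conditional binomial interval was taken for genes with at least 50 UMIs over both groups. Shares carry Clopper-Pearson intervals after thinning to 5000 UMIs without replacement. Where a side had 0 UMIs, 3 counts over the group stood in. The neighbour graph used 2000 variable genes, 30 principal components and 20 neighbours. No doublet caller was run, so doublets remain possible. Named genes were the 15 highest and 15 lowest ratios with at least 50 CPM on the higher side, without mitochondrial, ribosomal, unnamed and ranking genes and without 10 genes past 2-fold that were over 3 times higher in macrophage barcodes than in the higher group, plus up to 4 genes per list with the largest ratio, the label markers and the 3 families. Intervals were tested on simulated counts. Alternatives were the cell limits, ranking, depth, scaling and UMI minimum. Leaving out immune, cycling or Mup-rich barcodes or each gene's highest barcode, and comparing with score 0, were chosen after seeing the data. A marker gene is not reported here. Tools were scipy 1.17.1, numpy 2.4.6 and pandas 2.3.3 under Python 3.11.15, with matplotlib 3.10.9 and scikit-learn 1.9.0.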

Additional observations from a re-analysis of the deposited data

Results flagged for a closer look

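Onecut1 stood out because its log2 ratio was −1.08 in the DDC library and 0.09 in the DDC and cMet library. Hspb1 likewise had −1.99 and 0.72, and its value in the DDC library rests on 1 comparison barcode. The differences between the libraries were not tested.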

How the results depend on the processing

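In the DDC library, 203 genes at least 2-fold higher and 241 lower became 86 and 121 with cells thinned to 5000 UMIs, 82 and 111 with at least 200 UMIs per gene, 380 and 409 with at least 20, and 126 and 150 in cells without a UMI of the 4 non-hepatocyte genes. In the shallowest tercile of cells by UMIs 111 were higher and the pericentral median was −1.65. Ranked without Ly6d, the median of injury-induced genes was −0.023, Hsph1 0.15 and Igkc −4.71. In the DDC and cMet library 307 and 187 became 139 and 100 when thinned, 165 and 91 with 200 UMIs, 482 and 338 with 20, 177 and 109 without a UMI of the 4 genes, 87 and 102 in the shallowest tercile, and 168 and 55 without Mup-rich barcodes. There 473 were higher with the top 10%, and 141 when ranked without Ly6d, where Ccl20 was −1.85. The pericentral median there was 0.051 without a UMI of the 4 genes and 0.098 in the shallowest tercile. Signs also turned in the DDC library for cornified envelope genes (−0.31 against all other ranked cells) and Saa2 (0.22 without Defb1, 0.054 without Sprr1a, 0.23 in the middle tercile). The female-biased median rested on 2 genes, Acot3 (−1.19) and Cyp2a4 (0.36). Where it turned, only 1 gene was counted (0.47 thinned, 0.36 with 200 UMIs, 0.066 without the 4 genes, 0.42 in the shallowest tercile). Cyp2a4 itself lay above 0 in all 23 alternatives (0.066 to 0.78). Heat shock genes turned to 0.049 without the 4 genes (Hspb1 0.49, Hspa1b 0.54), 0.021 in the shallowest tercile (Hspa1b 0.77), 0.00330 in the middle tercile (Hspb1 0.88, Hspa1b 0.41) and 0.035 without each gene's highest barcode (Hspb1 0.59, Hspa1b 0.71). In the shallowest tercile the mitosis median was 0.00147 (3 genes), Ccnb2 0.19, Birc5 0.00147 and Tmsb4x −0.82. Without Mup-rich barcodes, chosen by the same genes, the Mup list was 0.023 (6 genes) and Mup21 0.52 in the DDC library. In the DDC and cMet library the Mup list was then 0.096 (11 genes), male-biased genes 0.012 and YAP targets −0.10. Single genes there were Mup7 0.25, Mup17 0.47, Mup18 0.34, Mup21 0.10 and Cyp4a12b 0.75. The cause was not tested, except that fewer UMIs, genes or cells were counted where thinning, the UMI minimum or fewer cells was the change. No paired analysis was possible because each group is 1 library with no replicate numbers. Single libraries, mixed diets and free RNA limit all values.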
